A study of Mus musculus with 6 samples.

Results

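The 10 genes described here are metabolic genes that hepatocytes express unevenly along the liver lobule. Cyp2e1, Glul, Cyp1a2 and Oat are known for expression around the central vein, and Cps1, Pck1, Ass1, Hal, Sds and Cyp2f2 for expression around the portal tract. They were taken by symbol, 10 of the 31253 features in the count matrices, and were followed in hepatocytes picked out by a panel of liver-secreted protein genes. The study compared single liver cells between stages of colorectal cancer metastasis. Livers in a pre-metastatic stage (labelled pre-metastatic niches) and livers with macro-metastases, 2 libraries each, came from orthotopic mouse models of colorectal cancer, and 2 further libraries came from control livers. CT26-GFP, a mouse colon carcinoma line with green fluorescent protein, is the line named for all 6 libraries, controls included, and the tissue is liver in all 6. The labels give no strain, age or time of collection and do not say that the 2 libraries of a group are from different mice. The p-values therefore reflect the variation between these libraries, part of which may be technical.

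The liver lobule runs from the portal tract, where oxygen- and nutrient-rich blood enters, to the central vein, where it leaves. Portal hepatocytes are known for urea synthesis, gluconeogenesis and amino acid breakdown, and central hepatocytes for glutamine synthesis and cytochrome P450 drug metabolism. Wnt ligands from endothelial cells of the central vein maintain the central programme through beta-catenin, with Glul, Cyp2e1 and Cyp1a2 among its known targets.

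Promoter sequence was found for 8 of the 10 genes, all but Cps1 and Sds. Cyp2e1 and Cyp1a2 are shown because they had the steepest central gradients, and Pck1 because its promoter holds a known hormone-responsive site. Each line gives the 150 bases before the RefSeq transcription start (GRCm38.p6), 5′ to 3′ on the gene's strand, with the motif found in capitals. The regions are chr7:140763669-140763818 (+ strand) for Cyp2e1, chr9:57683656-57683805 (− strand) for Cyp1a2 and chr2:173152923-173153072 (+ strand) for Pck1.
Cyp2e1: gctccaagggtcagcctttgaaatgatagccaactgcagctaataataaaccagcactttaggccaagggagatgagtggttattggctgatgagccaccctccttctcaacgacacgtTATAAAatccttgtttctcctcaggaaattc
Cyp1a2: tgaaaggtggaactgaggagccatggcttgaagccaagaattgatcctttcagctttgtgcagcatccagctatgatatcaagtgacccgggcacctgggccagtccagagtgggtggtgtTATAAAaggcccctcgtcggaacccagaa
Pck1: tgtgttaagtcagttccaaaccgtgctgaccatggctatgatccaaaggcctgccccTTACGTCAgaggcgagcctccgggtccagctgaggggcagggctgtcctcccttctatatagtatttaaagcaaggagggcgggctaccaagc
The capitals mark the TATA box TATAAA, whose first base lies 31 bases before the start in Cyp2e1 and 29 in Cyp1a2, and the cyclic AMP response element TTACGTCA, whose first base lies 93 bases before the start in Pck1. Both strands of 300 bases, 250 before to 50 after the start, were searched. TATAAA occurs in 13.6% and TTACGTCA in 0.5% of the 32851 promoters of that length in the same RefSeq table. The TCF/LEF letters CTTTGAT, present in 3.73% of them, were found in Hal at 199 bases before the start and in none of the other 7. A match of letters is a description and not a site.

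After filtering, 65432 of 71908 barcodes remained. Hepatocytes were barcodes with at least 5% of their UMIs (unique molecular identifiers, counts of captured transcripts) in the 17 panel genes and under 1% in 24 markers of other cell types. They numbered 338 and 322 in pre-metastatic, 6 and 36 in macro-metastatic and 585 and 289 in control libraries, or 3.34% and 3.08%, 0.05% and 0.26%, and 6.32% and 2.85% of kept cells. Their summed UMIs were 2965615 and 1520071 in pre-metastatic, 9787 and 133343 in macro-metastatic, and 3365091 and 1279624 in control libraries. Pre-metastatic replicate 1 stood apart in mitochondrial UMIs, with a median of 12.1% per hepatocyte, against 4.43% in pre-metastatic replicate 2, 2.17% and 1.29% in macro-metastatic and 2.53% and 1.00% in control libraries. In unsupervised clusters, 81.4% and 72.4% of pre-metastatic hepatocytes fell in a cluster led by acute-phase genes such as Fga and Saa1, and 98.6% and 98.3% of control hepatocytes in another, so the comparison of the groups is also one between clusters. Summed other-type markers came to 218 and 473 CPM, the depth-scaled unit for UMIs of a gene, in pre-metastatic, 1737 and 1350 CPM in macro-metastatic and 312 and 272 CPM in control hepatocytes. Of the 24 markers, 4 and 2, 14 and 6, and 1 and 5 were at 0 in the same order, the cholangiocyte keratin Krt19 in all 6 libraries, and their part in the results was not tested. Library pairs shared 126 to 222 barcodes, at most 1 of them a hepatocyte barcode in both.

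All 10 zonated genes were detected in pre-metastatic and control hepatocytes, and none passed the test between them. The urea-cycle gene Ass1 had the largest fitted difference, 430 ± 118 CPM in pre-metastatic and 909 ± 294 CPM in control hepatocytes (SD, n = 2 each). Cyp1a2 and Cyp2f2 were also lower in both pre-metastatic libraries, and the other 7 overlapped between the groups. The test was edgeR's quasi-likelihood F-test on UMIs summed per library, over 8700 genes with Benjamini-Hochberg adjustment, and a gene is called at an adjusted p under 0.05. The test called 332 genes (3.82%), 234 higher and 98 lower in pre-metastatic livers, and 0 of the 10 zonated genes. At an unadjusted p under 0.05 it counted 3 of them, Cyp1a2, Ass1 and Cyp2f2, and 1586 of the 8700 genes. DESeq2 called 1 of them, Ass1, and 3.18% of all genes. The 3 genes are also those whose groups did not overlap, 3 of 10, against 49.2% of all genes tested. Levels below are CPM on TMM-scaled library sizes, a scaling that keeps a few very abundant transcripts from shifting all others. Fewer transcripts per cell and fewer cells with the transcript cannot be told apart in these sums. A comparison of groups without 1 library, given below as a check, leaves 1 library in its group. The spread then comes from the other groups alone, so calls gained or lost there are checks and not results.

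Cyp2e1 (chr7:140763739-140774987, + strand, mm10) encodes a cytochrome P450 that oxidises ethanol and paracetamol. It stood at 5326 and 6921 CPM in pre-metastatic and 5548 and 2751 CPM in control hepatocytes, a log2 fold change of 0.56 (SE 0.32, edgeR adjusted p = 0.396). The groups overlapped, since control replicate 1 lay above pre-metastatic replicate 1. Without pre-metastatic replicate 1 the change was 0.72, and with hepatocytes limited to under 5% mitochondrial UMIs it was −0.10 (edgeR adjusted p = 0.938). Glul (chr1:153899944-153909723, + strand) encodes glutamine synthetase, known from the last row of hepatocytes around the central vein. It had 206 and 549 CPM in pre-metastatic and 361 and 119 CPM in control hepatocytes, log2 fold change 0.63 (SE 0.51, adjusted p = 0.571). Replicates of the same group differed here more than the groups did. Without pre-metastatic replicate 1 the change was 1.15.

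Cyp1a2 (chr9:57676937-57683703, − strand) encodes a P450 that metabolises caffeine. It stood at 259 and 232 CPM in pre-metastatic and 462 and 288 CPM in control hepatocytes, log2 fold change −0.62 (SE 0.24, adjusted p = 0.213). Both pre-metastatic values were below both control values. Without pre-metastatic replicate 1 the change was −0.72, and without control replicate 1 it was −0.23. Oat (chr7:132557478-132576398, − strand), which encodes the mitochondrial ornithine aminotransferase and overlaps Fgfr2 on the same strand, had 734 and 675 CPM in pre-metastatic and 749 and 659 CPM in control hepatocytes. Its groups interleaved, with means of 704 ± 41.7 and 704 ± 64.3 CPM (SD, n = 2 each).

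Cps1 (chr1:67123026-67231259, + strand) encodes carbamoyl phosphate synthetase, which starts the urea cycle. It stood at 2311 and 1373 CPM in pre-metastatic and 2208 and 1985 CPM in control hepatocytes, log2 fold change −0.19 (SE 0.26, adjusted p = 0.764). The pre-metastatic libraries lay on either side of the controls. Ass1 (chr2:31470207-31520672, + strand) encodes argininosuccinate synthetase, a later enzyme of the same cycle. It had 514 and 347 CPM in pre-metastatic and 701 and 1116 CPM in control hepatocytes, log2 fold change −1.07 (SE 0.28, adjusted p = 0.0687). The groups did not overlap, and DESeq2 called the change (adjusted p = 0.0100). The edgeR change was −1.37 (adjusted p = 0.0307) without control replicate 1, −1.40 (2.42e-07) without pre-metastatic replicate 1, −0.82 (0.00678) without pre-metastatic replicate 2 and −0.72 (0.386) without control replicate 2. Of the last 500 bases of its transcript, 35.7% of 31-base words also occur in the processed copy Gm5424, so reads could be split between both. The share of such words found in other genes was 27.0% for Cyp2e1, Fcho2 among them, and 3.05% for Pck1.

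Pck1 (chr2:173153048-173159273, + strand), the phosphoenolpyruvate carboxykinase of gluconeogenesis, stood at 5277 and 6463 CPM in pre-metastatic and 6196 and 6173 CPM in control hepatocytes. The controls lay between the pre-metastatic values, and the log2 fold change was −0.08 (SE 0.21, adjusted p = 0.897). Hal (chr10:93488768-93519304, + strand), histidine ammonia-lyase, had 325 and 208 CPM in pre-metastatic and 318 and 341 CPM in control hepatocytes, log2 fold change −0.30 (SE 0.23, adjusted p = 0.546). Pre-metastatic replicate 2 was the low one, and without pre-metastatic replicate 1 the change was −0.68. Sds (chr5:120476526-120483932, + strand), serine dehydratase, had 62.2 and 37.3 CPM in pre-metastatic and 32.4 and 53.9 CPM in control hepatocytes, from 158, 55, 114 and 77 UMIs, and the groups overlapped (log2 fold change 0.29, SE 0.30, adjusted p = 0.669). Cyp2f2 (chr7:27119909-27133660, + strand), a portal P450 that activates naphthalene in mice, had 126 and 282 CPM in pre-metastatic and 331 and 404 CPM in control hepatocytes. Both pre-metastatic values were lower, with a log2 fold change of −0.86 (SE 0.33, edgeR adjusted p = 0.202). The change was −1.53 without pre-metastatic replicate 2 and −0.39 without pre-metastatic replicate 1. Glul, Sds and Cyp2f2 have genes on the opposite strand within their bounds, and whether counting used strand is not given in the sources used here.

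**Figure D1:**
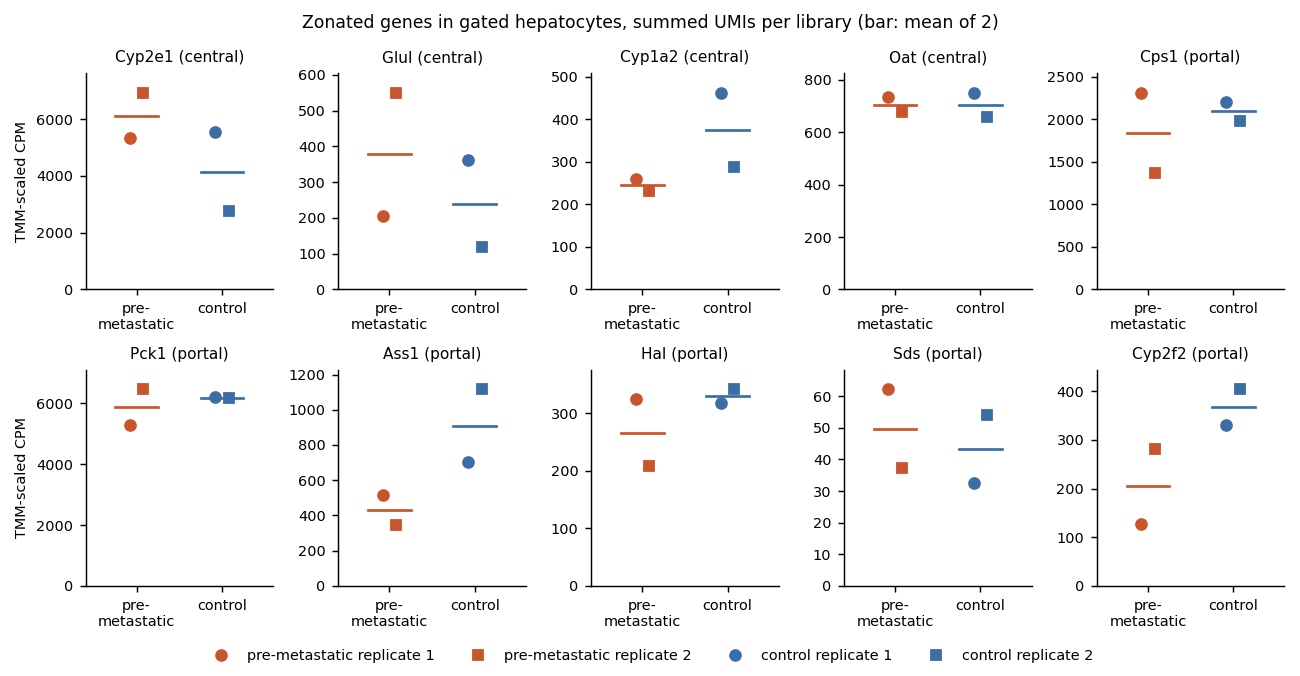
TMM-scaled CPM (y axis, linear from 0, separate per panel) of each zonated gene in gated hepatocytes of 2 pre-metastatic (left) and 2 control libraries (right), points for libraries and bars for means of 2. Cyp1a2, Ass1 and Cyp2f2 are the panels in which both pre-metastatic points lie below both control points, for Ass1 514 and 347 against 701 and 1116 CPM.

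Position along the lobule was read from 20 central and 21 portal landmark genes, none of them among the 10. The landmark index of a cell is the central share of its landmark UMIs, and its median was 0.444 and 0.524 in pre-metastatic and 0.467 and 0.400 in control hepatocytes. Neither group lay wholly above the other. Cells with at least 5 landmark UMIs, 1513 in these 4 libraries with a median of 36 such UMIs, were divided at the terciles 0.351 and 0.571 into a portal, a middle and a central zone. These zones are ranges of a score and not cell types, and 459 cells lay within 0.05 of a dividing value. The central zone held 32.5% and 44.6% of pre-metastatic and 35.3% and 23.9% of control hepatocytes.

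The balance of the 10 genes was taken as the summed UMIs of the 4 central over those of the 6 portal genes. The log2 ratio was −0.40 and −0.06 in pre-metastatic and −0.46 and −1.40 in control hepatocytes. Both pre-metastatic ratios lay above both control ratios, by little for control replicate 1, and control replicate 2 stood apart from the other 3 libraries. The smallest p an exact two-sided permutation test of 2 against 2 libraries can give is 0.33, so no test was made. Cyp2e1 and Pck1 carry most of these UMIs, and without both the ratios were −1.48 and −0.63 in pre-metastatic and −1.19 and −1.87 in control hepatocytes, and the groups overlapped. Without Pck1 alone, an alternative chosen after seeing the data, they were 0.97 and 1.90 in pre-metastatic and 0.99 and −0.03 in control hepatocytes, again overlapping.

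**Figure D2:**
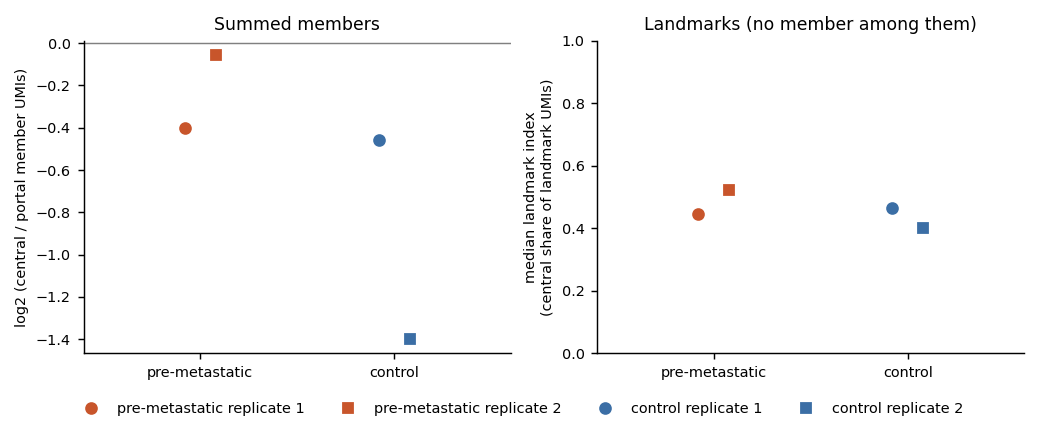
Left, log2 ratio of central to portal zonated-gene UMIs per library; right, median landmark index (0 to 1), for pre-metastatic and control libraries with 1 point each. Pre-metastatic replicate 1 (−0.40) and control replicate 1 (−0.46) lie close together, and control replicate 2 (−1.40) lies lowest.

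The landmark zones separated 9 of the 10 genes in the direction of their label in all 4 libraries. Of 6417 genes with at least 100 UMIs, 11.3% were higher in the central zone in all 4 libraries and 16.0% higher in the portal zone. In either direction that makes 27.3%, and a mean difference of at least 2-fold was found for 1.79% towards the central and 1.62% towards the portal zone. The median gene moved by −0.135 to 0.031 (log2) between the zones in unscaled CPM, the scale used here. Cyp2e1 was 15.4 and 29.2 times higher in the central than in the portal zone of pre-metastatic and 14.3 and 11.6 times higher in that of control hepatocytes. Cyp1a2 was 21.5 and 27.7 times higher in pre-metastatic and 15.1 and 10.7 times higher in control hepatocytes. Both folds were larger in each pre-metastatic library than in either control. This difference was not tested, and the share of all genes that show it was not taken. The Cyp1a2 folds rest on 18 and 9 portal-zone UMIs in pre-metastatic and 63 and 69 in control hepatocytes.

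Glul, the most narrowly central enzyme in textbooks, was 10.1 and 16.6 times higher in the central zone of pre-metastatic and 6.12 and 6.74 times higher in that of control hepatocytes. Oat had a shallower gradient, 3.64 and 4.39 times in pre-metastatic and 3.42 and 3.31 times in control hepatocytes. In control replicate 2 Oat's middle zone (1200 CPM) was as high as its central zone (1138 CPM). Within a library, Glul UMIs were concentrated in few cells, and the top 10% of cells held 65.8% and 76.3% of them in pre-metastatic and 65.2% and 67.6% in control libraries.

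On the portal side, Cyp2f2 was 55.5 and 106 times higher in the portal than in the central zone of pre-metastatic and 40.8 and 17.6 times higher in that of control hepatocytes. These folds rest on 5 and 4 UMIs in the central zone of pre-metastatic and 18 and 9 of control hepatocytes. Sds was 25.3 times higher in pre-metastatic replicate 1 and at least 18.3 times higher in pre-metastatic replicate 2, which had 0 UMIs in the central zone and was set against a floor of 3 counts per library, and 21.0 times higher in control replicate 1. In control replicate 2 the central zone held 1 Sds UMI, against 63 in the portal zone. Hal was 4.84 and 12.4 times higher in the portal zone of pre-metastatic and 7.85 and 6.41 times higher in that of control hepatocytes. Ass1 and Pck1 had shallow gradients of 1.59 and 1.53 times and 1.41 and 1.21 times in pre-metastatic and 1.85 and 1.49 times and 1.86 and 1.8 times in control hepatocytes. Cps1, labelled portal, did not have the same direction in all 4, with portal over central ratios of 1.05 and 1.1 in pre-metastatic and 0.876 and 0.943 in control hepatocytes.

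**Figure D3:**
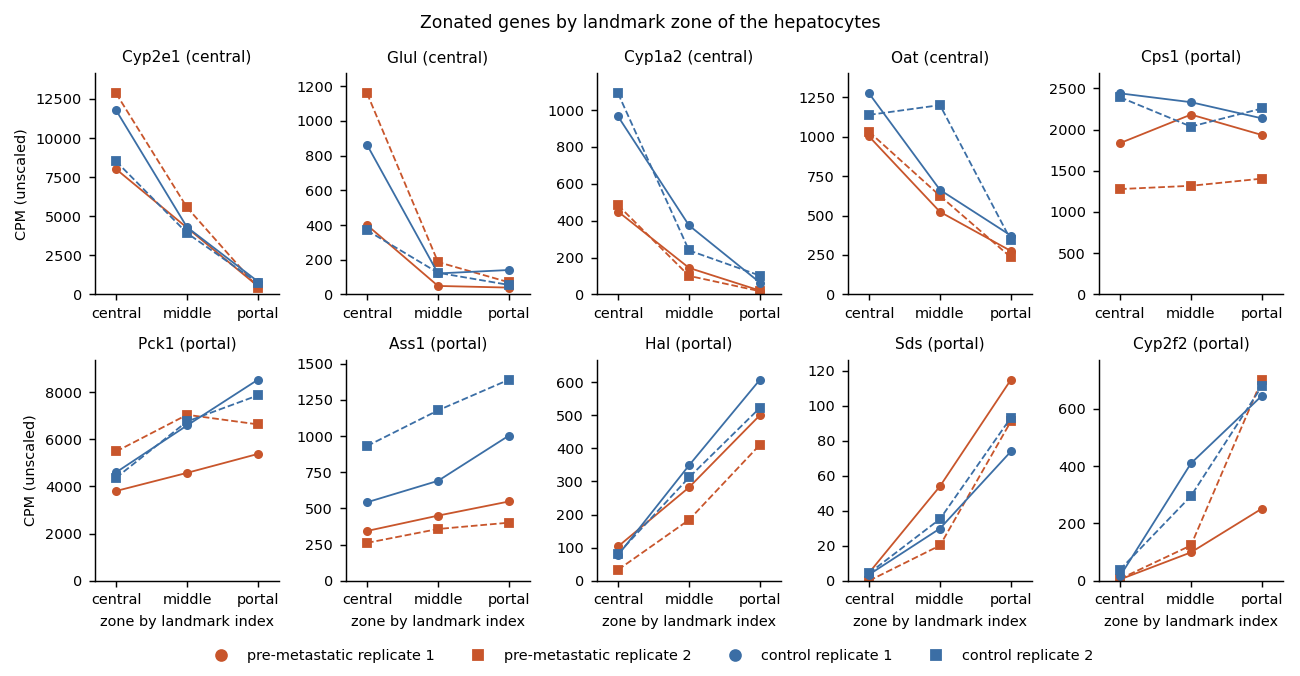
Unscaled CPM (y axis, from 0, separate per panel) of each zonated gene in the central, middle and portal zone of hepatocytes by landmark index, 1 line per library, pre-metastatic in orange and control in blue. Cyp2e1, Glul, Cyp1a2 and Oat fall towards the portal zone, Hal, Sds and Cyp2f2 rise steeply, Pck1 and Ass1 rise less, and Cps1 stays within 1278 to 2439 CPM.

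Compared zone by zone between the groups, 2 of the 10 genes were called, both lower in pre-metastatic hepatocytes. Cyp1a2 was at 528 and 513 CPM in the central zone of pre-metastatic and 942 and 987 CPM in that of control hepatocytes, log2 fold change −0.89 (SE 0.22, edgeR adjusted p = 0.0429), where 2.72% of 6480 genes were called, 0.725% lower. In the portal zone it was at 24.4 and 18.9 CPM in pre-metastatic and 59.0 and 96.7 CPM in control hepatocytes, −1.78 (SE 0.36, adjusted p = 0.0314), with 3.47% of 6277 genes called and 0.828% called lower. These portal values rest on 18 and 9 UMIs in pre-metastatic and 63 and 69 in control hepatocytes. In the middle zone its change was −1.0 (SE 0.32, adjusted p = 0.0912). Cyp2f2 was called in the middle zone, where 4.92% of 5937 genes were (1.16% lower), at 125 and 128 CPM in pre-metastatic and 404 and 257 CPM in control hepatocytes, −1.40 (SE 0.28, adjusted p = 0.00619). In the portal zone, where Cyp2f2 is known to be expressed, its values were 294 and 762 CPM in pre-metastatic and 597 and 643 CPM in control hepatocytes (−0.24, adjusted p = 0.806).

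The calls in the zones rest on few libraries. Central-zone Cyp1a2 was not called without any 1 of the 4 libraries (−0.85 to −0.90, adjusted p = 0.105 without control replicate 1, 0.136 without control replicate 2, 0.110 and 0.242 without pre-metastatic replicates 1 and 2). Its portal-zone call was lost without control replicate 2 (−1.43, 0.0778). The middle-zone Cyp2f2 call was lost without control replicate 1 (−1.0, adjusted p = 0.25) and without pre-metastatic replicate 1 (−1.41, 0.320). Ass1 was lower by a like amount in each zone, −0.99, −0.84 and −1.06 in the central, middle and portal zones (edgeR adjusted p = 0.0802, 0.139 and 0.0756). In the central zone it was −1.27 without control replicate 1 and −1.26 without pre-metastatic replicate 1. In the portal zone it was −1.37 and −0.80 without either pre-metastatic library.

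In macro-metastatic livers hepatocytes were too few for a test at the 5% limit, and the values there are given with exact Poisson 95% intervals, which cover counting error only. Macro-metastatic replicate 1 had 11 UMIs of the central and 102 of the portal genes in 6 cells, 84 of them Pck1, and 0 of Cyp1a2, Hal and Sds, which allows up to 306.5 CPM each at 3 counts. In the 36 cells of macro-metastatic replicate 2, Cyp2e1 stood at 1897 CPM (1671 to 2146), Cps1 at 502 CPM (389 to 638), Pck1 at 1357 CPM (1167 to 1570) and Ass1 at 1732 CPM (1516 to 1971). In unscaled CPM the controls had 5803 and 3072 of Cyp2e1, 2309 and 2216 of Cps1, 6481 and 6893 of Pck1 and 733 and 1246 of Ass1. In macro-metastatic replicate 2 the first 3 lay below both controls and Ass1 above both. Pck1 went the other way in macro-metastatic replicate 1, at 8583 CPM (6846 to 10626), above both controls. The remaining genes in macro-metastatic replicate 2 had 9 to 61 UMIs, with Glul at 457 CPM (350 to 588), Cyp1a2 at 337 CPM (246 to 452) and Cyp2f2 at 90.0 CPM (46.5 to 157), the last against 346 and 451 CPM in control hepatocytes.

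With the panel limit lowered to 2%, an alternative chosen after seeing the data, the macro-metastatic libraries held 14 and 84 barcodes and could be tested in a fit over all 6 libraries. Of these, 9 and 77 were in hepatocyte clusters, and 5 of the 8 barcodes that the lower limit added in macro-metastatic replicate 1 were in cluster 24, which was left unnamed. Macro-metastatic hepatocytes of the 5% limit were in clusters 14 (66.7% and 55.6%) and 31 (33.3% and 44.4%) and control ones in cluster 25 (98.6% and 98.3%), so here too groups and clusters cannot be told apart. Cyp2e1, Cps1, Pck1 and Cyp2f2 fell against control, by 2.39 (SE 0.55, adjusted p = 0.00730), 2.87 (0.53, 0.00122), 1.88 (0.53, 0.0294) and 2.33 (0.44, 0.00135) on the log2 scale. Glul rose by 1.93 (SE 0.61, adjusted p = 0.0495). Barcodes with 2% to 5% of UMIs in the panel made up 8 of 14 and 48 of 84 in macro-metastatic libraries. They made up 494 of 832 and 341 of 663 in pre-metastatic and 146 of 731 and 284 of 573 in control libraries. Such barcodes were also lower in Cyp2e1, Cps1 and Cyp2f2 and higher in Glul than those of the 5% limit (below). The part of this mix in the changes was not tested. The call rate was 9.49% of 9714 genes, 5.86% higher and 3.63% lower, and the 5 zonated genes were among them. The median gene moved by −0.12, and DESeq2 did not call Glul (1.97, adjusted p = 0.136) and called Oat lower (−1.25, 0.0126). In macro-metastatic replicate 1, 144 of 148 Glul UMIs (97.3%) came from 1 of the 14 barcodes, and without that library Glul changed by 0.13 (adjusted p = 0.892). Without it Cyp2e1 was not called (−2.10, 0.0624), Cps1 (−2.52, 0.0222), Pck1 (−2.34, 0.0149) and Cyp2f2 (−2.35, 0.0248) were, and Oat was called lower (−1.30, 0.0476). Pck1 was at 4836 and 1712 unscaled CPM in macro-metastatic, against 6631 and 8033 CPM in control barcodes, and Cps1 at 158 and 419 CPM against 2190 and 1828 CPM. Both fell below both controls.

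Against pre-metastatic livers, in the same fit, Cyp2e1 (−2.33, SE 0.55, adjusted p = 0.0131), Cps1 (−2.33, SE 0.52, 0.00978) and Pck1 (−1.96, SE 0.54, 0.0328) fell in macro-metastatic barcodes, where 5.81% of 9714 genes were called and 1.62% called lower. Without macro-metastatic replicate 1 only Pck1 of these 3 was called (−2.45, adjusted p = 0.0237), with Cyp2e1 at −2.07 (0.0902) and Cps1 at −2.01 (0.0597). Both contrasts share the macro-metastatic libraries. Ass1 was at 946 and 1993 unscaled CPM in macro-metastatic, 683 and 444 CPM in pre-metastatic and 745 and 1454 CPM in control barcodes, and did not pass against control (0.16, adjusted p = 0.880) or against pre-metastatic livers (1.08, 0.216).

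Barcodes with 2% to 5% of UMIs in the panel genes, called low-share barcodes and examined after seeing the data, differed from gated hepatocytes in the same libraries. There were 494 and 341 in pre-metastatic and 146 and 284 in control libraries, with median mitochondrial UMIs of 0.21% and 0.34% and of 1.97% and 0.57%. In pre-metastatic libraries 96.8% and 92.7% of low-share barcodes were in cluster 14, while 81.4% and 72.4% of gated ones were in cluster 31. In control libraries 77.4% and 96.1% of low-share and nearly all gated barcodes were in cluster 25, so these comparisons, pre-metastatic against control included, are also between clusters. Cyp2e1 (log2 fold change −1.88, SE 0.23, adjusted p = 0.000360), Cyp1a2 (−2.98, SE 0.26, 3.49e-05), Cps1 (−1.42, SE 0.12, 3.30e-05) and Cyp2f2 (−2.39, SE 0.23, 5.71e-05) were lower in low-share barcodes by edgeR with the library as a block. Glul (1.76, SE 0.41, adjusted p = 0.0137) and Oat (0.58, SE 0.14, 0.0160) were higher, but neither was called without control replicate 2 (1.67, 0.0982 and 0.55, 0.110). Pck1 (0.11), Ass1 (0.07), Hal (0.23) and Sds (−0.33) did not pass, the last 2 called without control replicate 1 (0.36, adjusted p = 0.0391 and −0.51, 0.0349). In all, 20.7% of 8014 genes were called, 14.6% lower and 6.11% higher, and the median gene moved by 0.08. In unscaled CPM the median gene rose by 0.483 to 0.93, so values here are TMM-scaled. The low share of panel genes defines these barcodes, so lower panel genes are no result.

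In CPM on TMM sizes computed over both kinds of barcode together, Glul stood at 1054 and 671 in pre-metastatic and 3441 and 581 in control low-share barcodes, against 260 and 688 in pre-metastatic and 443 and 148 in control gated hepatocytes. Only in pre-metastatic replicate 2 was it not higher. In control replicate 1, with the highest value, 113 of 146 low-share barcodes were in hepatocyte clusters, against 275 of 284 in control replicate 2. Of its other barcodes 10 were in T-cell cluster 10 and 9 in the unnamed cluster 24. How the Glul UMIs were spread over these barcodes was not examined. Cps1 stood at 958 and 680 in pre-metastatic and 1020 and 982 in control low-share barcodes, against 2912 and 1719 and against 2709 and 2472 in gated hepatocytes of the same libraries. It was lower in all 4. Between pre-metastatic and control low-share barcodes, 12 of 7996 genes (0.15%) and 0 of the 10 zonated genes were called by edgeR. At an unadjusted p under 0.05 it counted 2 zonated genes and 686 of all genes. DESeq2 called 1.18% of all genes and 1 zonated gene, Cyp1a2 (−1.96, adjusted p = 0.00924). It had an edgeR change of −1.93 (SE 0.34, adjusted p = 0.169) there, and −2.29 without control replicate 2.

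**Figure D4:**
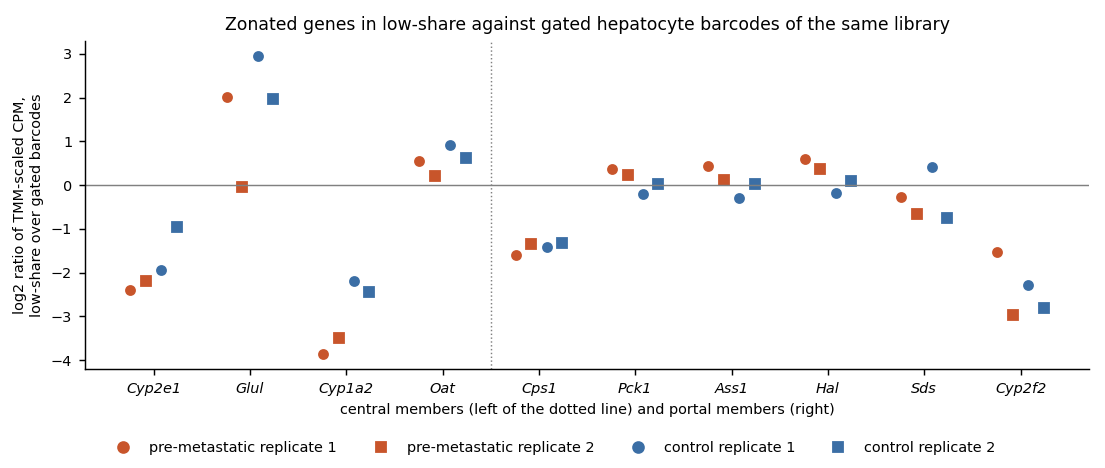
Log2 ratio of TMM-scaled CPM in low-share over gated hepatocyte barcodes of the same library (y axis) for each zonated gene, 1 point per library. All 4 points of Cyp2e1, Cyp1a2, Cps1 and Cyp2f2 lie below 0, all 4 of Oat above 0, and Glul runs from −0.04 to 2.96.

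Other genes of the same pathways were taken from lists, in the hepatocyte test of pre-metastatic against control livers with its 3.82% of genes called and a median over all genes of 0.00. Of 8 urea-cycle genes, 8 were tested, Asl fell (−1.12, SE 0.22, adjusted p = 0.0237) and the median was −0.54. Asl, the lyase that follows Ass1, had 48.8 and 34.6 CPM in pre-metastatic and 83.8 and 101 CPM in control hepatocytes. The carbamoyl transferase Otc (−0.71, adjusted p = 0.0747), the citrin transporter Slc25a13 (−0.66, 0.117) and the arginase Arg1 (−0.33, 0.491) did not pass. Of 11 tested genes of glutamine, glutamate and ornithine handling, the glutamine transporter Slc38a2 rose (1.08, SE 0.20, adjusted p = 0.0192) and the portal glutaminase Gls2 fell (−1.29, SE 0.27, 0.0344), at 186 and 101 CPM in pre-metastatic and 330 and 379 CPM in control hepatocytes.

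Of 10 gluconeogenesis genes, G6pc, the glucose-6-phosphatase, rose (1.01, SE 0.19, adjusted p = 0.0188), at 306 and 334 CPM in pre-metastatic and 170 and 147 CPM in control hepatocytes. The pyruvate carboxylase Pcx (0.42, adjusted p = 0.234) did not pass, and the list's median was 0.14. Of 9 tested genes of histidine and serine breakdown none passed by edgeR (median −0.30), among them Uroc1 (−0.48, adjusted p = 0.307), the enzyme after Hal. Of 18 genes of central drug metabolism, Cyp2a5 (−1.37, SE 0.25, adjusted p = 0.0173), the glutathione transferase Gstm1 (−1.20, SE 0.23, 0.0215) and the xenobiotic receptor Nr1i2 (−1.44, SE 0.23, 0.00967) fell and the median was −0.58. Ahr, whose product drives Cyp1a2, had −0.73 (SE 0.22, adjusted p = 0.112). Of 12 tested Wnt targets and receptors and 13 tested hepatocyte transcription factors, none passed by edgeR (medians 0.11 and −0.22), with Lrp5 (1.57, adjusted p = 0.107) and Prox1 (−0.68, 0.0911) at the smallest p of their lists.

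Among the landmarks themselves, 3 of 18 tested central genes and 6 of 21 portal genes were called. Of the central ones angiogenin, Ang, rose (1.54, SE 0.22, adjusted p = 0.0057) and Cyp2a5 fell. Of the portal ones Ctsc (1.72, SE 0.19, adjusted p = 0.00165), G6pc and Ifitm3 (1.29, SE 0.23, 0.0158) rose and Asl, Gls2 and Etnppl fell. Etnppl had the largest of these changes (−2.37, SE 0.23, adjusted p = 0.000936), at 56.3 and 46.1 CPM in pre-metastatic and 225 and 310 CPM in control hepatocytes. Acute-phase genes moved with the group beside these results: 18 of 19 rose (median 2.87), with Saa1 at 37395 and 14717 CPM in pre-metastatic and 42.6 and 32.9 CPM in control hepatocytes. In endothelial cells, Wnt2, a ligand of the central vein niche, did not pass between pre-metastatic and control livers (−0.04, edgeR adjusted p = 0.990). It fell in macro-metastatic livers (−0.62, SE 0.15, 0.0209), where 23.4% of 12605 genes were called, 8.39% lower. Of 6 tested genes on the Wnt ligand list it was the only 1 called there (median 0.09, against −0.01 over all genes). Rspo3 did not pass in either comparison (0.62, 0.794 and 0.34, 0.478). Macro-metastatic and control endothelial cells were mainly in different clusters (below).

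Cell by cell, the nearest genes of each zonated gene were taken, up to 3, by mean within-library Spearman correlation over 1416 genes and 1084 cells thinned to 1000 UMIs in the 4 pre-metastatic and control libraries. The cells of a library share depth and free RNA, so these are descriptions. Cyp2e1 was nearest to Akr1c6 (rho 0.42), Gulo (0.42) and Cyp2a5 (0.42), Glul to Cyp2e1 (0.21), Oat (0.195) and Akr1c6 (0.171), Cyp1a2 to Cyp2e1 (0.38), Apoe (0.283) and Pon1 (0.273), and Oat to Cyp2e1 (0.33), Cyb5a (0.324) and Akr1c6 (0.319). All 4 central genes thus had another central gene or landmark among those listed. Cps1 was nearest to Alb (0.34), C3 (0.336) and Serpina3k (0.333), Pck1 was near Tat (0.38) and Mat1a (0.357), and Ass1 near Pck1 (0.19) and Rida (0.184). Hal was nearest to Uroc1 (0.235), Rida (0.234) and Pck1 (0.230), Sds to Etnppl (0.14), Bhmt (0.138) and Hal (0.131), and Cyp2f2 to Pigr (0.28), Hsd17b13 (0.248) and Hpx (0.230). The lowest of these rho values, in counts this sparse, are no finding.

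Shares of hepatocytes with a UMI, at 1000 UMIs a cell, were read beside those of T cells, a class taken to lack liver enzymes. Pck1 was seen in 98.1% and 99.0% of pre-metastatic and 98.1% and 98.5% of control hepatocytes, against 2.60% and 4.20% of pre-metastatic and 5.70% and 3.6% of control T cells. Cyp2e1 was seen in 73.2% and 79.7% of pre-metastatic and 78.7% and 68.5% of control hepatocytes, against 2.3% and 3.10% and against 6.30% and 2.40% of T cells. Ass1 was seen in 34.2% and 34.0% of pre-metastatic and 54.5% and 73.0% of control hepatocytes, against 1.40% and 1.5% and against 1.8% and 2.80% of T cells. Glul differed, at 13% and 21.3% of pre-metastatic and 21.1% and 10% of control hepatocytes. In T cells it was seen in 13.7% and 16.5% of pre-metastatic and 11.2% and 11.5% of control cells. This share thus does not set hepatocytes apart from T cells for Glul. Other classes gave Glul UMIs too (below), so T cells cannot be taken to lack it and are no measure of its background. Thinning left out 69 and 125 pre-metastatic and 167 and 89 control hepatocytes. The unthinned shares of Ass1 were 69.2% and 50.9% in pre-metastatic and 77.4% and 80.6% in control hepatocytes, at median depths of 2789 and 1340 and of 2100 and 1691 UMIs, with T cells at 1718 to 1858 UMIs.

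Several zonated genes also gave UMIs in cells other than hepatocytes, and these were tested in endothelial cells, Kupffer cells (the resident liver macrophages), monocytes or macrophages and neutrophils. In macro-metastatic livers Cyp2e1 and Pck1 fell against control in all 4 classes and Cps1 in all but the monocytes or macrophages. Glul and Oat passed in none of them by edgeR. T cells, which were not tested, went the same way in the share of cells with a UMI, at 1000 UMIs a cell. Pck1 was seen in 0.23% and 0% of macro-metastatic and 5.70% and 3.6% of control T cells. Cyp2e1 was seen in 0.23% and 0.1% against 6.30% and 2.40%, and Cps1 in 0.23% and 0.1% against 4.5% and 1.8%. The fall was thus not particular to the 4 classes. Between pre-metastatic and control livers 0 zonated genes were called by edgeR in any of the 4 classes, where 0.151%, 0.394%, 0% and 0.0271% of genes were, in the order above. At an unadjusted p under 0.05 there were 4, 4, 1 and 0, and DESeq2 called 0, 2, 0 and 0, those in Kupffer cells being Glul (0.67, adjusted p = 0.00887) and Cps1 (−1.45, 0.0142). Of all genes, 957 of 12605, 1661 of 13203, 677 of 9800 and 671 of 7371 were at an unadjusted p under 0.05, in the same order. DESeq2 called 159, 282, 29 and 26 of them (1.26%, 2.14%, 0.296% and 0.353%). Leaving out macro-metastatic replicate 1 or 2 from the shared fit brought calls of Glul (0.77 in both, adjusted p = 0.0425 and 0.0392) and Cps1 (−1.30, 0.0379 in both) in endothelial cells and of Cps1 (−1.45, 0.0203 and 0.0211) and Ass1 (−1.35, 0.0344 and 0.0382) in Kupffer cells. Clusters differed between groups in 3 of the 4 classes: most macro-metastatic Kupffer cells (80.4% and 79.1%) were in cluster 4 and most control ones (64.2% and 58.4%) in cluster 3, and endothelial cells were mainly in clusters 6 (71.4% of macro-metastatic replicate 1) and 23 (95.1% of replicate 2) in macro-metastatic and in cluster 5 (75.0% and 58.0%) in control libraries. Of the neutrophils, 54.5% and 60.7% of macro-metastatic ones were in cluster 18, against 3.48% and 2.64% of control ones, of which 96.5% and 97.4% were in cluster 16.

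Cyp2e1 stood at 5.50 and 9.50 CPM in macro-metastatic and 41.5 and 20.5 CPM in control endothelial cells (TMM-scaled), a change of −2.03 (SE 0.42, adjusted p = 0.0129), with 23.4% of 12605 genes called, 8.39% lower. Cyp1a2 (−2.52, SE 0.58, 0.0188), Cps1 (−2.81, SE 0.35, 0.00182) and Pck1 (−2.55, SE 0.36, 0.00302) fell too, 4 of 9 tested. Without control replicate 1, Cyp2e1 (−1.43, adjusted p = 0.103) and Cyp1a2 (−2.09, 0.149) were not called, nor was Cyp1a2 without control replicate 2 (−2.87, 0.0686). The 17 panel genes moved with these values, summing to 294 and 348 CPM in macro-metastatic and 1015 and 644 CPM in control endothelial cells, and their part in the result was not tested. Glul, which endothelial cells express, had 831 and 1529 CPM in macro-metastatic, 1064 and 1161 CPM in pre-metastatic and 617 and 695 CPM in control cells. It was higher in all 4 tumour-bearing libraries, with 0.85 (SE 0.27, edgeR adjusted p = 0.0566) in macro-metastatic cells. The change was 1.23 without macro-metastatic replicate 1 and 0.36 without macro-metastatic replicate 2. DESeq2 called Glul there in all 6 libraries (0.86, adjusted p = 0.0174). Ass1 was at 7.0 and 42.0 CPM in macro-metastatic and 9.16 and 8.15 CPM in control cells (1.51, SE 0.66, edgeR adjusted p = 0.132). The 2 macro-metastatic libraries thus lay on either side of the controls. The change was 2.3 without macro-metastatic replicate 1 and −0.29 without macro-metastatic replicate 2.

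In Kupffer cells 5 of 8 tested genes were called, against 36.6% of 13203 genes, 20.1% higher and 16.6% lower. Cyp2e1 (−2.32, SE 0.40, adjusted p = 0.00329), Cyp1a2 (−2.39, SE 0.54, 0.0108), Cps1 (−2.70, SE 0.35, 0.000926) and Pck1 (−2.05, SE 0.40, 0.00606) fell, and Hal rose by 1.12 (SE 0.33, 0.0304). Hal stood at 8.06 and 10.7 CPM in macro-metastatic, 4.65 and 5.39 CPM in pre-metastatic and 2.92 and 5.82 CPM in control cells. Its call was lost without control replicate 1 (0.70, adjusted p = 0.186) and without macro-metastatic replicate 2 (0.92, 0.0736), and without control replicate 1 those of Cyp1a2 (−1.77, 0.143) and Pck1 (−1.82, 0.0694) were lost as well. Panel genes did not separate here, with 1558 and 1200 CPM in macro-metastatic, 1280 and 1378 CPM in pre-metastatic and 1417 and 1354 CPM in control cells. Other hepatocyte genes did move here, against a median of 0.00 over all genes. Of 15 tested central landmarks 11 fell (median −1.82), as did 11 of 15 tested genes of central drug metabolism (median −2.39). Cyp2e1 and Cyp1a2 are on that second list, and Aldh1a1, Cyp2a5, Cyp2c29, Cyp2c37 and Cyp2c54 are among the fallen genes of both lists. Portal landmarks were mixed, with 5 of 17 tested called higher and 2 lower (median −0.54). Of 19 acute-phase genes 18 rose (median 2.04), and the part of any of these lists in the result was not tested. Glul had 1095 and 1294 CPM in macro-metastatic, 1335 and 1511 CPM in pre-metastatic and 813 and 977 CPM in control cells. Its change was 0.42 (SE 0.15, edgeR adjusted p = 0.0681) in macro-metastatic cells, and 0.54 without macro-metastatic replicate 1. In pre-metastatic cells it was 0.67 (SE 0.16, adjusted p = 0.148).

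Monocytes or macrophages had 55 and 64 cells in the control libraries. There Hal rose by 3.26 (SE 0.66, adjusted p = 0.0191), at 56.3 and 64.7 CPM in macro-metastatic and 8.40 and 12.5 CPM in pre-metastatic cells, against 0 and 3 UMIs in control cells. Cyp2e1 (−3.59, SE 0.75, 0.0226) and Pck1 (−3.12, SE 0.64, 0.0201) fell, 3 of 7 tested zonated genes in all against 7.95% of 9800 genes, 6.10% higher and 1.85% lower. All 3 calls were lost without control replicate 1 (adjusted p = 0.134 for Cyp2e1, 0.0994 for Pck1 and 0.0995 for Hal) or macro-metastatic replicate 1 (0.0834, 0.0538 and 0.0663). Pck1 and Cyp2e1 were not called without control replicate 2 (0.158 and 0.153), nor Pck1 and Hal without macro-metastatic replicate 2 (0.0556 and 0.0562). In neutrophils Cyp2e1 (−4.62, SE 0.58, adjusted p = 0.000555), Cps1 (−4.49, SE 0.66, 0.00107) and Pck1 (−4.11, SE 0.59, 0.00102) fell, 3 of 6 tested against 13.9% of 7371 genes, 5.96% lower. The neutrophil clusters named above differ between these groups. Panel genes summed to 433 and 535 CPM in macro-metastatic and 3743 and 1118 CPM in control neutrophils and to 610 and 632 CPM in macro-metastatic and 1269 and 1060 CPM in control monocytes or macrophages, and their part was not tested.

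**Figure D5:**
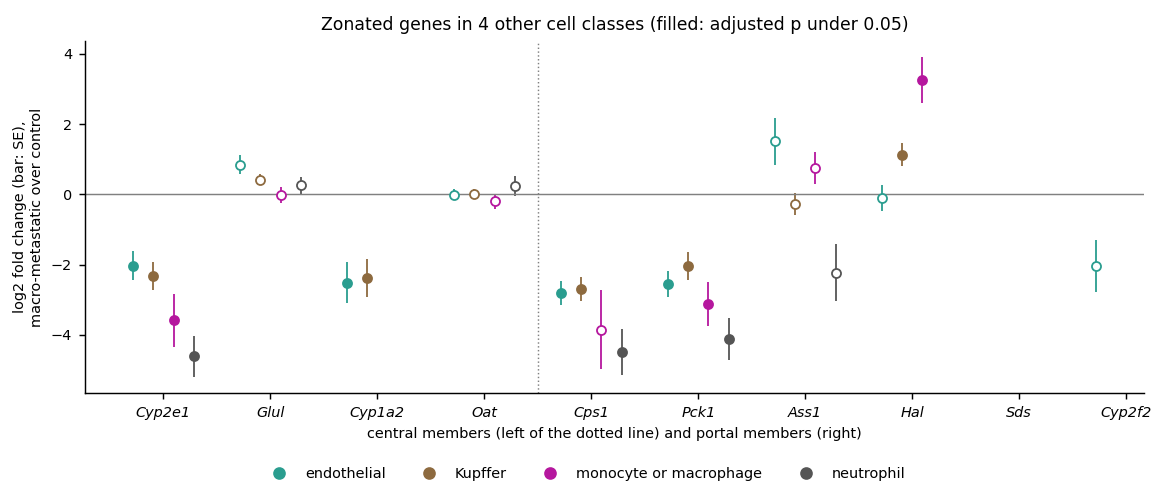
Log2 fold change with SE bars, macro-metastatic over control, of each zonated gene in 4 non-hepatocyte classes (colours), filled where adjusted p is under 0.05; genes filtered out for low counts have no point. Cyp2e1 and Pck1 lie between −4.62 and −2.03 in every class, and Hal lies above 0 in Kupffer cells (1.12) and monocytes or macrophages (3.26).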

How the data were processed

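Livers were cut up, treated with collagenase, passed through a sieve, cleared of erythrocytes and dead cells and captured on BD Rhapsody, per the labels' protocols. The authors deposited, per library, a matrix of raw UMI counts per gene and barcode, with CASAVA 1.8, UMI-tools and mm10 named in the submitters' processing notes; the aligner is not given in the sources used here. Starting from these counts, barcodes needed 300 genes, under 25% mitochondrial UMIs and a doublet score under 0.286 (a caller that marked 1.77% to 2.53% of barcodes). Hepatocytes were gated as the report states, with at least 8 of the 17 panel genes detected. Other classes came from Leiden clusters (2000 variable genes, 30 components, 15 neighbours, resolution 1) named by marker lists. Sums of UMIs over the cells of a library entered edgeR 4.0.16 (filterByExpr, TMM, quasi-likelihood F-test, R 4.3.3), pre-metastatic against control hepatocytes in a fit of 4 libraries and other classes in a fit of all 6, with DESeq2 1.42.0 as an alternative. Clustering used scanpy 1.11.5.

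The 10 genes, the gene lists and the landmarks were chosen with earlier results of these data known. All 10 genes entered every comparison, less those filtered out for low counts. In the zones, the low-share barcodes and the other cell classes, values are printed for only some of them. Further genes were named by rule, the 3 best correlates of each and up to 4 genes of each other list by smallest adjusted p. A few genes that this rule names are not reported here. The fitting code was tested first on simulated counts of 2 pre-metastatic and 2 control hepatocyte libraries, with a spread that was set and not estimated. It called 38% of 50 genes raised 2-fold and 28% of 50 lowered 2-fold. For 4-fold changes it called 100% and 96%, and of unchanged genes 0.097%. A gene that was not called is thus not shown to be unchanged. Hepatocyte sums held 9787 to 3365091 UMIs per library. Poisson intervals and floors of 3 counts cover counting error only.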

Additional observations from a re-analysis of the deposited data

Results flagged for a closer look

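Oat and Ass1 had opposite directions in 2 classes of cells, with both libraries of each group on the same side in each class. The differences between the classes were not tested, and none of the single changes passed edgeR's test. Between pre-metastatic and control livers, Oat had a log2 fold change of 0.15 (adjusted p = 0.713) in Kupffer cells and 0.52 (0.612) in neutrophils, against −0.09 (0.972) in monocytes or macrophages. Between macro-metastatic and control livers Oat had 0.24 (adjusted p = 0.626) in neutrophils and −0.20 (0.638) in monocytes or macrophages. Ass1 had 0.76 (adjusted p = 0.336) in monocytes or macrophages and −2.24 (0.0859) in neutrophils, where the control libraries held 6 and 2 Ass1 UMIs and DESeq2 did call it (−2.37, adjusted p = 0.0336).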

How the results depend on the processing

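No zonated gene reversed its direction against the main fit where either fit called it, and alternatives were not set against each other. Of 180 alternative values for the zonated genes in pre-metastatic against control hepatocytes, 165 stayed on their side of the threshold and 15 crossed into a call. The 332 genes called there became 523 with all 6 libraries in the fit, 216 with the panel limit at 10%, 66 at 2%, 111 with hepatocytes taken as Leiden clusters, 182 with mitochondrial UMIs under 5% (chosen after seeing the data) and 805 with no filter on low counts, and 179 to 1103 without 1 library. Against macro-metastatic barcodes, DESeq2 called 529 genes (922 by edgeR) for control and 248 (564) for pre-metastatic livers, and 247 were called in the second without macro-metastatic replicate 1. In low-share barcodes the 12 genes called between pre-metastatic and control livers became 94 with DESeq2, 429 with no filter and 0 to 86 without 1 library.

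Counts of called zonated genes without 1 library ran from 0 to 2 in the central and middle zones and 0 to 5 in the portal zone, each with 1 in the full fit. For macro-metastatic against control they ran from 2 to 6 in endothelial cells (4 in full, 7 with no filter), 2 to 6 in Kupffer cells (5) and 0 to 3 in monocytes or macrophages (3). For pre-metastatic against control the full fits called 0 in endothelial and Kupffer cells, and calls appeared there in some fits without 1 library. With no filter 6 and 5 zonated genes were called, where 2.42% and 4.18% of all genes were (19.9% for macro-metastatic against control endothelial cells). DESeq2 called 2 in Kupffer cells, and 2.14% of all genes. The share of all genes called also moved without 1 library, in the zones and in these classes. The counts above are thus no result about the zonated genes.

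Same-numbered libraries did not deviate together (correlation of deviations 0.00511 over 8700 genes), so the numbers are not taken to pair them. With the replicate number as a block, 524 genes (6.02%) were called in hepatocytes, Ass1 (adjusted p = 0.0445) and Cyp2f2 (0.0357) among them, and 0 genes in low-share barcodes. The block called 0 zonated genes in the central and 2 in the middle zone, where 2.36% and 7.78% of all genes were called. Under the block at the 2% limit Pck1 was not called (adjusted p = 0.0504) and Hal was (−1.36, 0.0393).

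The log2 central to portal ratio depended on the barcodes and genes taken. In pre-metastatic replicate 1 (−0.401) it was −0.926 at a limit of 2%, 0.349 at 10%, −0.876 with Leiden clusters, −1.592 in low-share barcodes, −1.478 without Cyp2e1 and Pck1 and −1.467 as a mean over cells. In pre-metastatic replicate 2 (−0.056) the same gave −0.759, −0.364, −0.713, −1.64, −0.626 and −0.832. In macro-metastatic replicate 2 (−0.355) they gave −0.813, −0.55, −0.794, −1.142, −1.132 and −0.625, and −0.774 with mitochondrial UMIs under 50%. In control replicate 1 (−0.459) it was −1.192 without Cyp2e1 and Pck1 and −1.315 as a mean over cells. With 1 gene left out at a time, chosen after seeing the data, Pck1 and Cyp2e1 moved it most. Without Pck1 it was 0.967 and 1.899 in pre-metastatic, −0.71 and 0.258 in macro-metastatic and 0.988 and −0.031 in control libraries. Without Cyp2e1 it was −2.845 and −2.581 in pre-metastatic, −5.087 and −1.745 in macro-metastatic and −2.638 and −3.24 in control libraries. Without Cps1 it was 0.05 and 0.191 in pre-metastatic libraries and −0.157 in macro-metastatic replicate 2, where it was also −0.588 without Glul, −0.543 without Oat and 0.486 without Ass1. In macro-metastatic replicate 1 (−3.213) it was 0.67 at 2%, 0.795 with Leiden clusters and 3.726 in low-share barcodes. The causes were not tested. The planned tests of macro-metastatic livers at limits of 5% and 10% were not run, as macro-metastatic replicate 1 held 6 hepatocytes. Depth limits Sds and Cyp2f2 in the central zone and all zonated genes in control monocytes or macrophages, where single libraries held 0 to 94 of their UMIs.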
